A study of Mus musculus with 6 samples.

Results

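The Toll-like receptors *Tlr1*, *Tlr2*, *Tlr3*, *Tlr4*, *Tlr6*, *Tlr7*, and *Tlr9* and the co-receptors *Cd14*, *Ly96*, and *Cd180* were examined in hematopoietic stem cells (HSCs) of WT and *Irf1-/-* mice. The genes were chosen by symbol, and all 10 were found among the 26264 genes of the table of normalized counts. Of these 10 genes, 8 had a mean normalized count of at least 10 over the libraries and were tested, as were 17404 genes in all. *Tlr7* and *Tlr9* did not reach this mean.

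Bulk RNA-seq was performed on HSCs sorted from bone marrow of untreated female mice at 8 weeks of age, with 3 libraries of WT (C57Bl/6) mice and 3 libraries of *Irf1-/-* (B6.129S2-Irf1 tm1Mak/J) mice, each from 1 mouse. The knockout is present in the whole body, so HSC-intrinsic effects and effects of the surroundings of the cells cannot be told apart. Libraries are given by the replicate numbers 2, 3, and 4, which name libraries within a genotype. A normalized count is the number of reads of a gene divided by 1 size factor per library, and recovered reads on genes numbered 59658080, 45332573, and 43267486 in WT replicates 2, 3, and 4 and 43138521, 57281017, and 45129929 in *Irf1-/-* replicates 2, 3, and 4.

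Toll-like receptors recognize microbial molecules and nucleic acids and signal through adaptors such as MyD88 and TRIF to nuclear factor κB and IFN regulatory factors. TLR4 binds lipopolysaccharide together with MD-2, the product of *Ly96*, after CD14 has handed the ligand over, whereas TLR2 pairs with TLR1 or TLR6 to bind bacterial lipopeptides, and TLR3, TLR7, and TLR9 sense nucleic acids in endosomes. Hematopoietic stem and progenitor cells carry several of these receptors and can respond to their ligands directly.

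The targeted gene, *Irf1*, was counted at 10122, 11119.6, and 12057.5 in WT replicates 2, 3, and 4 and at 9267, 9524, and 9287 in *Irf1-/-* replicates 2, 3, and 4 (normalized counts). The groups did not overlap, but *Irf1* reads were still abundant in all 3 *Irf1-/-* libraries (84.3% of the WT mean). Counts were summed over the whole gene, so reads from parts outside the deletion are included and the value does not check the genotype labels. *Irf1* was not called (log2 fold change −0.24, SE 0.088, adjusted *P* = 0.170, limma).

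Genes were called where the adjusted *P* was under 0.05 and the log2 fold change was beyond 0.58 in either direction. With limma 0 of the 8 tested genes of the family were called, against 0.96% of all tested genes called higher and 0.954% called lower in *Irf1-/-* HSCs. At an unadjusted *P* under 0.05 in limma, 4 of the 8 tested genes were counted, namely *Cd14*, *Ly96*, and *Tlr2* on the higher side and *Tlr4* on the lower side. Of all tested genes, 8.38% were higher and 8.07% lower at that level. The same 4 genes were those whose libraries did not overlap between genotypes, and 10.6% of all tested genes were higher and 9.27% lower in *Irf1-/-* HSCs without overlap. edgeR called 0 of the 8 genes and had 4 at an unadjusted *P* under 0.05. DESeq2 called 2, *Cd14* and *Ly96*, both higher, where 2.25% of the genes with an adjusted *P* were called higher. With 3 libraries per genotype, the exact two-sided permutation test cannot give a *P* under 0.1.

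Among the genes of lipopolysaccharide recognition, *Tlr4*, which encodes the signaling receptor, had normalized counts of 1375, 1254, and 1420.05 in WT replicates 2, 3, and 4 and of 1114, 1076, and 1088 in *Irf1-/-* replicates 2, 3, and 4. Every *Irf1-/-* library lay below every WT library, and the 3 *Irf1-/-* libraries lay close together. The mean was 1349.8 ± 85.7 in WT HSCs and 1093 ± 19.5 in *Irf1-/-* HSCs (SD, *n* = 3 each), 80.9% of the WT mean. In limma the log2 fold change of *Tlr4* was −0.30 (SE 0.11, adjusted *P* = 0.183), DESeq2 gave an adjusted *P* of 0.0814, and the range over all alternatives was from 0.0814 to 0.433. The exact permutation *P* was 0.1, the smallest possible. In these bulk samples, fewer cells carrying a transcript and less of it per cell cannot be told apart.

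*Ly96* encodes MD-2, the subunit of the TLR4 complex that holds the lipid. Its normalized counts were 259, 211, and 211 in WT replicates 2, 3, and 4 and 357, 348, and 325 in the *Irf1-/-* libraries in the same order. The lowest *Irf1-/-* library lay above the highest WT library. The means were 227 ± 28.0 and 343 ± 16.6 (SD, *n* = 3 each), a ratio of 1.51. On the log2 scale the difference was 0.60 in limma (SE 0.20, adjusted *P* = 0.126). DESeq2 gave 0.59 with an adjusted *P* of 0.0360, and the adjusted *P* over all alternatives ranged from 0.0360 to 0.333. *Ly96* was thus past both thresholds in DESeq2 only.

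*Cd14*, the co-receptor that passes lipopolysaccharide to TLR4 and MD-2, had the largest fold change of the 8 tested genes. WT replicates 2, 3, and 4 had normalized counts of 73.2, 48.5, and 59.2, from 89, 43, and 55 reads. *Irf1-/-* replicates 2, 3, and 4 had 111, 137, and 162, from 104, 159, and 156 reads. All 3 *Irf1-/-* libraries were above all WT libraries, and the gap between the groups was wider than the range of the WT values. The means were 60.3 ± 12.4 and 137 ± 25.5 (SD, *n* = 3 each), a ratio of 2.27. *Cd14* had a log2 fold change of 1.17 with a 95% interval from 0.47 to 1.88 (SE 0.33, adjusted *P* = 0.0738 in limma). DESeq2 gave 1.18 and an adjusted *P* of 0.00920, edgeR an adjusted *P* of 0.0811, and the range over all alternatives was from 0.00920 to 0.316.

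*Cd180* encodes RP105, a relative of TLR4 without a signaling domain that is best known from B cells. Its normalized counts were 103, 134, and 129 in WT replicates 2, 3, and 4 and 113, 61.4, and 72.7 in *Irf1-/-* replicates 2, 3, and 4. *Irf1-/-* replicates 3 and 4 were below all WT libraries, but replicate 2 was above WT replicate 2, so the groups overlapped. The mean was 122 ± 16.8 in WT and 82.3 ± 27.1 in *Irf1-/-* HSCs (SD, *n* = 3 each). Its log2 fold change of −0.60 was past the fold threshold in size, with an interval from −1.31 to 0.11 (SE 0.33, adjusted *P* = 0.412 in limma).

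Of the receptors for bacterial lipopeptides, *Tlr2* encodes the subunit common to both pairs. Its normalized counts were 1216, 1054, and 1288 in WT replicates 2, 3, and 4 and 1389, 1674, and 1563 in *Irf1-/-* replicates 2, 3, and 4. The *Irf1-/-* libraries all lay above the WT libraries. The means were 1186 ± 119.9 and 1542 ± 144 (SD, *n* = 3 each), a ratio of 1.30. On the log2 scale limma gave 0.38 for *Tlr2* (SE 0.12, adjusted *P* = 0.121). In DESeq2 the adjusted *P* was 0.0399, but the log2 fold change of 0.38 stayed under the threshold on the fold change, and the adjusted *P* over all alternatives ranged from 0.0399 to 0.384.

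*Tlr6*, whose product pairs with TLR2 for diacylated lipopeptides, had normalized counts of 258, 215, and 200.1 in WT replicates 2, 3, and 4 and of 201, 202, and 194 in the *Irf1-/-* libraries. WT replicate 2 was the highest, and WT replicate 4 was within the *Irf1-/-* values. The log2 fold change was −0.16 with an interval from −0.63 to 0.31 (adjusted *P* = 0.803, limma), and without WT replicate 2 it was −0.059 (0.972). The span of *Tlr6* contains parts of *Fam114a1* and *Mir574* in the gene table of GRCm38.p6. Whether strand was used in the counting is not given, so the assignment of reads between *Tlr6* and *Fam114a1* is uncertain. *Fam114a1* had 724 ± 75.5 (WT) and 677 ± 99.6 (*Irf1-/-*) normalized counts (SD, *n* = 3 each), while *Mir574* was at 0 reads in all 6 libraries.

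*Tlr1*, the partner for triacylated lipopeptides, was near the lower end of what was tested. WT replicates 2, 3, and 4 had 17.3, 12.4, and 22.6 normalized counts and *Irf1-/-* replicates 2, 3, and 4 had 26.7, 23.3, and 17.6, from between 11 and 27 reads per library. The groups overlapped, and the interval of the log2 fold change ran from −0.87 to 1.62 around 0.37 (adjusted *P* = 0.831, limma), so differences beyond the fold threshold in either direction lie within it at this depth. With single libraries left out, the estimate was lowest when WT replicate 3 was dropped (0.16) and highest for WT replicate 4 (0.57). *Tlr1* and *Tlr6* also share sequence. Of the stretches of 100 bases in the longest coding transcript of *Tlr1*, 10.1% occur in *Tlr6*, so reads from the shared stretches could be lost or split. No other pair among the 10 genes and the remaining Toll-like receptors of the mouse had such a stretch in common.

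Among the receptors for nucleic acids, *Tlr3*, which senses double-stranded RNA, had normalized counts of 131, 115, and 124 in WT replicates 2, 3, and 4 and of 159.9, 118, and 117 in *Irf1-/-* replicates 2, 3, and 4. Only *Irf1-/-* replicate 2 lay outside the WT range. For *Tlr3* the log2 fold change was 0.084 with an interval from −0.51 to 0.68 (SE 0.28, adjusted *P* = 0.933, limma). Without *Irf1-/-* replicate 2 its sign turned (−0.061), as it did with quantile normalization (−0.0091), and the adjusted *P* over all alternatives ranged from 0.848 to 0.992.

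*Tlr7*, a sensor of single-stranded RNA, had 4, 26, and 0 reads in WT replicates 2, 3, and 4 and 14, 9, and 4 reads in *Irf1-/-* replicates 2, 3, and 4. The highest and the lowest values were both in WT libraries. *Tlr9*, which recognizes unmethylated CpG DNA, had 10, 2, and 0 reads in the WT and 0, 6, and 2 reads in the *Irf1-/-* libraries. Both genotypes thus held libraries of *Tlr9* at or under 3 reads, the limit that a count of 0 allows for counting error, and no fold change is given for either gene.

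**Figure D1:**
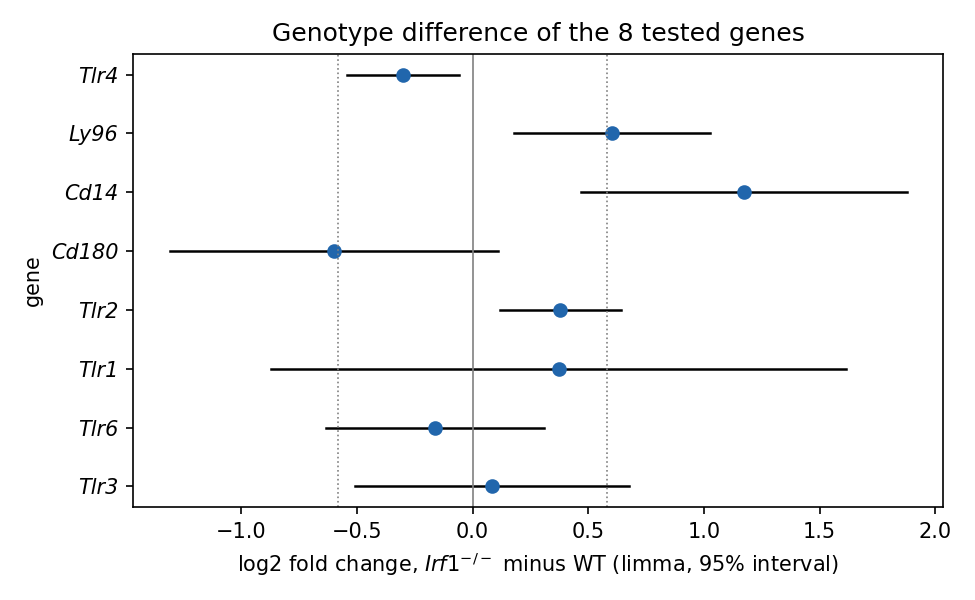
Log2 fold change of *Irf1-/-* against WT HSCs (horizontal axis, limma, log2 of the normalized count plus 1) for the 8 tested genes (vertical axis), with points for the estimate, lines for the 95% interval before any adjustment over genes, and dotted lines at the threshold of 0.58 in both directions. The intervals of *Cd14* (0.47 to 1.88), *Ly96* (0.18 to 1.02), and *Tlr2* (0.12 to 0.64) lie above 0, and that of *Tlr4* (−0.55 to −0.061) lies below.

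To set the genes against each other, normalized counts were divided by the length in kilobases of the longest coding transcript. In WT HSCs the level per kilobase was 394 ± 39.8 for *Tlr2*, 376 ± 46.4 for *Ly96*, and 331 ± 21.0 for *Tlr4* (SD, *n* = 3 each). These 3 genes of the family lay well above the rest. The mean ± SD of *Ly96* overlapped with those of both others, whereas *Tlr2* was above *Tlr4* in every library. *Tlr6* followed with 86.2 ± 11.4, then *Cd180* with 46.0 ± 6.33, *Cd14* with 38.4 ± 7.91, and *Tlr3* with 28.5 ± 1.84. *Cd180* and *Cd14* did not differ beyond their spread. *Tlr1* (6.57 ± 1.92), *Tlr7* (2.79 ± 4.12), and *Tlr9* (1.01 ± 1.23) were lowest in level per kilobase.

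In *Irf1-/-* HSCs the order of the levels per kilobase was different in its upper part. *Ly96* was first with 569.5 ± 27.6 and *Tlr2* second with 512 ± 47.7, and both lay above *Tlr4* at 268 ± 4.78. *Cd14*, at 87.0 ± 16.2, reached the level of *Tlr6* at 76.6 ± 1.72 and lay above *Cd180* at 31.1 ± 10.2. *Tlr3* had 30.5 ± 5.61 and did not differ from *Cd180* beyond the spread. Whether the order itself differed between genotypes was not tested.

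Ratios within a library do not depend on its size factor, and several were computed after the values of the genes had been seen. The ratio of *Tlr2* to *Tlr4* normalized counts was 0.884, 0.840, and 0.907 in WT replicates 2, 3, and 4 and 1.25, 1.56, and 1.44 in *Irf1-/-* replicates 2, 3, and 4. *Tlr4* thus had more reads than *Tlr2* in every WT library and fewer in every *Irf1-/-* library. The ratio of *Cd14* to *Tlr4* was 0.0533, 0.0386, and 0.0417 in WT and 0.0995, 0.128, and 0.149 in *Irf1-/-* libraries. For *Ly96* to *Tlr4* it was 0.189, 0.168, and 0.148 in WT and 0.321, 0.324, and 0.299 in *Irf1-/-* libraries. For each of these 3 ratios the groups did not overlap, which follows from the opposite directions of the single genes. The ratio of *Tlr6* to *Tlr2* did not overlap either (0.212, 0.204, and 0.155 in WT, and 0.145, 0.121, and 0.124 in *Irf1-/-* libraries), whereas that of *Cd180* to *Tlr4* did (0.0748, 0.107, and 0.0909, and 0.101, 0.0570, and 0.0668). The sum of all 10 genes was 3324 ± 215 in WT and 3562 ± 84.4 in *Irf1-/-* HSCs, and *Tlr2* and *Tlr4* together made up 76.2% ± 1.89 and 73.9% ± 1.88 of it.

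Across the 6 libraries, *Cd14* varied most like *Tlr2* (Pearson's *r* = 0.924) and *Ly96* (*r* = 0.920) among the tested genes of the family, on the log2 scale. *Tlr4* ran opposite to *Ly96* (*r* = −0.851) and *Cd14* (*r* = −0.827), and *Cd180* ran opposite to *Tlr2* (*r* = −0.879). These coefficients describe 6 libraries that fall into 2 genotypes. Over all tested genes, those most like *Cd14* were *Cerk*, *Arhgef28*, and *D930028M14Rik* (*r* between 0.991 and 0.992). For *Ly96* they were *Il10ra*, *Gm2a*, and *Zfp36l2*, with *Il10ra* at *r* = 0.998. For *Tlr2* they were *Wdsub1*, *Mettl21a*, and *Tmem202*, and for *Tlr4* they were *Ifit1bl1*, *P2ry12*, and *Socs4*. The closest genes to *Cd180* were *Etaa1*, *Itgb6*, and *Mir8116*, those to *Tlr6* were *BC065397*, *Tent4a*, and *Cep350*, those to *Tlr3* were *Armcx5*, *Sema6a*, and *Atxn7l1os2*, and those to *Tlr1* were *Tmem255a*, *Slc27a2*, and *Actc1*. The lowest of these 24 coefficients was 0.975 (*Tlr3* and *Atxn7l1os2*).

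Of the other 5 Toll-like receptors of the mouse, *Tlr5*, *Tlr8*, *Tlr12*, and *Tlr13* were tested, and limma called 0 of these 4 genes, with 0 at an unadjusted *P* under 0.05 and 0 called by edgeR or DESeq2. *Tlr12*, a receptor for profilin-like proteins, was the most abundant, with 96.3, 96.9, and 170.0 normalized counts in WT replicates 2, 3, and 4 and 151, 91.6, and 189.97 in *Irf1-/-* replicates 2, 3, and 4. The high libraries were WT replicate 4 and *Irf1-/-* replicates 2 and 4. The same 3 libraries lay on one side of the first principal component of all tested genes, which held 32.4% of the variance, with scores of −39.2, −37.4, and −30.8, against 36.7, 41.9, and 28.8 for WT replicates 2 and 3 and *Irf1-/-* replicate 3. The part of this split in the results was not tested. *Tlr5*, *Tlr8*, and *Tlr13* had means of 12.3 to 25.7 normalized counts in WT HSCs and of 15.7 to 22.2 in *Irf1-/-* HSCs.

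Of the 14 accessory and trafficking proteins, all were tested and 1 was called, with a median log2 fold change of 0.061 over the list against −0.0028 over all tested genes. Of all tested genes, 0.96% were called higher and 0.954% lower. At an unadjusted *P* under 0.05 in limma, 3 of the 14 were higher and 2 lower (8.38% and 8.07% of all tested genes). Without overlap between genotypes, 4 were higher (*Lbp*, *Pld3*, *Pld4*, and *Ap3b1*) and 2 lower (*Ly86* and *Hmgb1*), against 10.6% and 9.27%. The called gene was *Pld4*, which encodes an endolysosomal exonuclease that degrades nucleic acid ligands of the endosomal receptors. It had 145, 325, and 133 normalized counts in WT and 588, 479.6, and 389 in *Irf1-/-* replicates 2, 3, and 4, and limma gave 1.37 on the log2 scale (SE 0.30, adjusted *P* = 0.0244). *Pld4* was no longer called without WT replicate 2 (adjusted *P* = 0.0661), *Irf1-/-* replicate 2 (0.125), or *Irf1-/-* replicate 3 (0.0643), or without the trend in the prior variance (0.294). The chaperones *Hsp90b1* (22927 ± 4828 and 18426 ± 2272 normalized counts in WT and *Irf1-/-* HSCs) and *Cnpy3* (6389 ± 387 and 6066 ± 680.2), which fold Toll-like receptors, were not called, nor were *Hmgb1* and *Ap3b1*.

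Of the 23 adaptors and proximal signaling genes, limma, edgeR, and DESeq2 each called 0, and the median log2 fold change was 0.081. At an unadjusted *P* under 0.05 in limma, 4 were higher and 0 lower, against 8.38% and 8.07% of all tested genes. Without overlap between genotypes, 6 were higher (*Tirap*, *Ticam1*, *Ticam2*, *Irak2*, *Irak4*, and *Ikbke*) and 0 lower, against 10.6% and 9.27%. *Irak2* had the largest change of the list, with 1119.98, 1041, and 1234 normalized counts in WT and 1619, 1375, and 1828 in *Irf1-/-* replicates 2, 3, and 4. It was at 0.50 on the log2 scale with an adjusted *P* of 0.0527 in limma, 0.0470 in edgeR, and 0.00508 in DESeq2, and past both thresholds only when *Irf1-/-* replicate 3 was dropped (0.61, 0.0307). Without *Irf1-/-* replicate 4 the adjusted *P* was 0.267. The most abundant was *Irak1*, with 19112 ± 1285 (WT) and 18532 ± 55.4 (*Irf1-/-*) normalized counts (SD, *n* = 3 each). For the abundant genes log2 fold changes were −0.042 for *Irak1*, 0.12 for *Ripk1*, 0.023 for *Ikbkb*, and −0.015 for *Ikbkg*. Of the 15 inhibitors that were found, limma, edgeR, and DESeq2 each called 0, and the median log2 fold change was −0.0044. At an unadjusted *P* under 0.05 in limma, 2 were higher and 0 lower, against 8.38% and 8.07% of all tested genes. Those 2 were *Tnip1* and *Irak3*, singled out after their values were seen. *Tnip1*, which encodes a partner of the inhibitor A20, had 2998, 3176, and 2936 normalized counts in WT and 4114, 4087, and 4278 in *Irf1-/-* replicates 2, 3, and 4. Its adjusted *P* was 0.0117 in limma, but its log2 fold change of 0.45 was under the threshold, and the adjusted *P* was above 0.05 without *Irf1-/-* replicate 4 (0.0772), WT replicate 2 (0.0571), or the trend in the prior variance (0.164). *Irak3*, which encodes an inhibitory kinase-like protein, had 5960.4, 6828, and 5708 in WT and 7164, 7816, and 7869.9 in *Irf1-/-* libraries, a difference of 0.31 on the log2 scale (adjusted *P* = 0.0958, limma). The abundant genes *Nrros*, *Tollip*, *Sigirr*, and *Nfkbia* had log2 fold changes between −0.052 and 0.14.

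Of 22 transcripts that Toll-like receptor ligands induce in macrophages, 19 were tested and 1 was called, and at an unadjusted *P* under 0.05, 4 were higher and 2 lower. Of all tested genes, 0.96% were called higher and 0.954% lower, and 8.38% and 8.07% were higher and lower at that unadjusted level. The called gene was *Cxcl10*, a chemokine gene that also responds to IFN, which was lower in *Irf1-/-* HSCs. It had 272, 81.1, and 723 normalized counts in WT and 34.1, 24.2, and 47.8 in *Irf1-/-* replicates 2, 3, and 4. On the log2 scale *Cxcl10* was at −2.85 (SE 0.59, adjusted *P* = 0.0179, limma), and it was no longer called without *Irf1-/-* replicate 2 (adjusted *P* = 0.0713) or 3 (0.0603), or without the trend in the prior variance (0.302). Its log2 fold change was −2.09 without WT replicate 4, the library with its highest value, and −3.66 without WT replicate 3. *Ier3* had an adjusted *P* of 0.0285 but a log2 fold change of 0.50, under the threshold, and without *Irf1-/-* replicate 3 it was past both (0.61, adjusted *P* = 0.0138). Its adjusted *P* rose above 0.05 without *Irf1-/-* replicate 2 (0.120) or 4 (0.154), WT replicate 2 (0.0722) or 3 (0.118), or the trend in the prior variance (0.278). *Icam1* (0.35), *Tnfaip2* (−0.17), and *Sod2* (−0.14) were not called. The median log2 fold change of the list was 0.24, against −0.0028 over all tested genes.

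The study gates HSCs as lineage-negative cells with Sca1, cKit, and CD150 but not CD48 on their surface. This gate removes most mature blood cells, and marker lists were read to see what transcripts of other cell types remained. All 12 HSC markers were tested, and their summed normalized count was 213420, 217878, and 198385 in WT replicates 2, 3, and 4 and 213450, 237525, and 218109 in *Irf1-/-* replicates 2, 3, and 4, with *Kit* the most abundant and the groups overlapping. Of the 12 genes, 10 had positive log2 fold changes, with a median of 0.25, and *Fgd5* was called higher (0.83, adjusted *P* = 9.13e-05, limma), but not without the trend in the prior variance (adjusted *P* = 0.0511). Called higher in limma were 0.96% of all tested genes. At an unadjusted *P* under 0.05 in limma, 7 of the 12 markers were higher and 1 lower, against 8.38% and 8.07% of all tested genes. *Procr* was higher (4487, 3754, and 4147 in WT, and 5423, 6456, and 5866 in *Irf1-/-* replicates 2, 3, and 4), at 0.52 (adjusted *P* = 0.0112), and was past both thresholds only when WT replicate 2 was dropped. *Ly6a*, which encodes Sca1, went the other way (6908, 7439, and 7692, and 4974, 6047, and 5376), at −0.43 (adjusted *P* = 0.0245), and its adjusted *P* was above 0.05 when *Irf1-/-* replicate 2 (0.115) or 4 (0.112), WT replicate 3 (0.0786), or the trend (0.262) was dropped. All 12 monocyte or macrophage markers were tested, none of them at 0 in every library, and their sum was 25292, 33323, and 29305 in WT and 29318, 34419, and 30689 in *Irf1-/-* libraries, which overlapped. *Lyz2* made up most of it. Of these 12 genes, 7 had positive and 5 negative log2 fold changes, and 0 were at an unadjusted *P* under 0.05 in limma. *Cd68*, of the same list, was higher in all 3 *Irf1-/-* libraries, as *Cd14* was, with 642, 561, and 726 in WT and 843, 741, and 764 in *Irf1-/-* replicates 2, 3, and 4, and was not called (log2 fold change 0.29, adjusted *P* = 0.358, limma). Its part in the *Cd14* result was not tested.

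The 10 neutrophil markers summed to 507, 527, and 8033 in WT and 663, 684, and 1096 in *Irf1-/-* replicates 2, 3, and 4. Their most abundant gene, *Ngp*, had 2535 normalized counts in WT replicate 4 and at most 127 in the other libraries. *Ly6g*, a defining surface marker, had 43 reads in WT replicate 4, 1 read in *Irf1-/-* replicate 2, and 0 in the other libraries. WT replicate 4 was therefore set apart by neutrophil transcripts. Without it the log2 fold change was 1.17 for *Cd14* (adjusted *P* = 0.0725), 0.55 for *Ly96* (0.153), 0.44 for *Tlr2* (0.0670), and −0.27 for *Tlr4* (0.237, limma).

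The sums of 3 further lists also differed by genotype. The 10 erythroid markers summed to 96401, 103753, and 96167 in WT and 72336, 86535, and 78753 in *Irf1-/-* libraries, with *Car2* the most abundant and *Hba-a1*, *Hbb-bs*, and *Hbb-bt* at 0 reads in all libraries. Of the 7 tested, 2 had positive and 5 negative log2 fold changes. At an unadjusted *P* under 0.05 in limma, 0 were higher and 3 lower, against 8.38% and 8.07% of all tested genes. Of these 7 genes, limma called *Klf1* (−0.72, adjusted *P* = 0.0361) and *Car1* (−3.51, 0.01997) lower, against 0.954% of all tested genes. The adjusted *P* of *Klf1* went above 0.05 when *Irf1-/-* replicate 2 or 3, WT replicate 2 or 3, or the trend in the prior variance was dropped, and that of *Car1* did so when *Irf1-/-* replicate 3 or 4 or the trend was dropped and in edgeR and DESeq2. The 10 megakaryocyte markers summed to 67109, 82819, and 64636 in WT and 59579.7, 41945, and 55554 in *Irf1-/-* libraries, with *Itga2b* the most abundant. Of the 9 tested, 2 had positive (*Itgb3*, 0.023, and *Tubb1*, 0.15) and 7 negative log2 fold changes, with *Vwf* at −0.17. At an unadjusted *P* under 0.05 in limma, 0 were higher and 4 lower, against 8.38% and 8.07% of all tested genes. Of all tested genes, 0.954% were called lower. Of these 9 genes, limma called *Gp1ba* (−0.69, adjusted *P* = 0.0183), *Gp1bb* (−0.90, 0.00320), and *Pf4* (−1.11, 0.00334) lower, as edgeR and DESeq2 did. None of the 3 was called without the trend, and *Gp1ba* was also not called when WT replicate 3 or either of *Irf1-/-* replicates 2 and 3 was dropped. For the 10 endothelial or stromal markers, led by *Pecam1*, the sum was higher in all 3 *Irf1-/-* libraries (6233, 6962, and 7875 in WT and 9187, 8365, and 10507 in *Irf1-/-* replicates 2, 3, and 4). Of the 10 genes, 7 had positive and 3 negative log2 fold changes, and limma, edgeR, and DESeq2 each called 0. At an unadjusted *P* under 0.05 in limma, 4 were higher and 0 lower, against 8.38% and 8.07% of all tested genes. *Emcn* alone was higher without overlap (1461, 1454, and 1280.2, and 2011, 2224, and 2016). Its log2 fold change of 0.58 was just under the threshold (adjusted *P* = 0.0101, limma), and it was called with quantile normalization and with any of 4 of the 6 libraries left out, while its adjusted *P* was 0.158 without the trend in the prior variance. Each of these 3 sums did not overlap between genotypes, as was the case for *Cd14*, *Ly96*, *Tlr2*, and *Tlr4*, and their part in these results was not tested.

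The 9 B cell markers that were found, led by *Cd79b*, summed to 2935, 3265, and 2863 in WT and 3312, 3049.5, and 3259 in *Irf1-/-* libraries, while *Pax5* was at or under 18.3 normalized counts. This sum overlapped between genotypes, as *Cd180* did. Within the list, *Vpreb1* was lower (83.1, 146.5, and 83.9 in WT, and 67.2, 65.7, and 74.7 in *Irf1-/-* replicates 2, 3, and 4) and *Blnk* higher (56.8, 32.7, and 73.2, and 125.8, 85.5, and 95.5) in all 3 *Irf1-/-* libraries, and neither was called. The 10 dendritic cell markers, led by *Bst2*, summed to 7572, 6465, and 8294 in WT and 7729, 9518, and 7867 in *Irf1-/-* libraries. Of the 10 genes, 6 had negative log2 fold changes, and the median was −0.31. *Zbtb46* was lower in all 3 *Irf1-/-* libraries (236, 264, and 259 in WT, and 231, 176, and 174 in *Irf1-/-* replicates 2, 3, and 4) and was not called (−0.39, adjusted *P* = 0.427). Of the same list, limma called *Flt3*, which HSC progeny also express, higher, with 2656, 1729.9, and 2865 in WT and 3442, 4476, and 3459.99 in *Irf1-/-* replicates 2, 3, and 4 (log2 fold change 0.67, adjusted *P* = 0.0407). Of all tested genes, 0.96% were called higher in limma. *Flt3* was not called without *Irf1-/-* replicate 2 (adjusted *P* = 0.0922), 3 (0.127), or 4 (0.0747), WT replicate 3 (0.117), or the trend in the prior variance (0.358). The 10 T or NK cell markers, led by *Nkg7* and with *Gzma* at 0 reads in all libraries, summed to 4793, 4546, and 4839 in WT and 4104, 3833, and 4793 in *Irf1-/-* libraries. Of the 6 tested, 3 had positive and 3 negative log2 fold changes, with a median of −0.021. *Nkg7* itself was lower in all 3 *Irf1-/-* libraries (3209, 2895, and 2992 in WT, and 2389, 2174, and 2622 in *Irf1-/-* replicates 2, 3, and 4) and was not called (−0.34, adjusted *P* = 0.0894). The sums of the dendritic cell and of the T or NK cell markers overlapped between genotypes.

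Promoter sequences are shown because the deleted factor, IRF1, binds IFN-stimulated response elements and related motifs. RefSeq promoters of GRCm38.p6 (250 bases before to 50 bases after the start) matched 6 of the 10 genes, with 9 promoters for *Tlr1*, *Tlr2*, *Tlr3*, *Tlr6*, *Tlr9*, and *Cd180*, and *Tlr4*, *Tlr7*, *Cd14*, and *Ly96* were not matched. Both strands were searched for AANNGAAA, the core of such elements, which was found in 23.9% of all 32851 promoters of the same length. It was found in 6 of the 9 promoters, at 1 of 2 starts for *Tlr1* and *Tlr6*, at both nearby starts of *Cd180*, whose windows overlap, and for *Tlr2* and *Tlr3*, but not for *Tlr9*. *Tlr6* held 1 match that begins 239 bases before the start and a run of 3 overlapping copies on the opposite strand of the gene that begins 116 bases before the start. The windows of *Tlr6*, *Tlr3*, and *Tlr2*, but not those of *Tlr1* and *Cd180*, are printed 5′ to 3′ on the strand of the gene, which is the minus strand for all 3 genes, with the match in capitals. They are chr5:64959387-64959416 and chr5:64959258-64959287 for *Tlr6*, chr8:45410421-45410450 for *Tlr3*, and chr3:83841781-83841810 and chr3:83841735-83841764 for *Tlr2*. A match describes letters in the window only.
*Tlr6*, single match: acagagccaggTTTCTCTTgtgcttgtgtt
*Tlr6*, 3 overlapping copies: attctTTTCTCTTTCACTTTCTGTTtgatg
*Tlr3*: aagtgaatggcTTTCACTTtgtttagacac
*Tlr2*, first match: tgggaggcagcTTTCTCTTtaggacacctg
*Tlr2*, second match: agcctctggacTTTCAGTTctgttttgcct
Of these genes, *Tlr6* (log2 fold change −0.16) and *Tlr3* (0.084) overlapped between genotypes, and *Tlr2* (0.38) was higher in all 3 *Irf1-/-* libraries without being called in limma.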

How the data were processed

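Per the labels and the study's methods, the authors used Trim Galore!, HISAT2 (build mm39), and Htseq-count, and deposited a signal, that is, gene counts scaled by DESeq2 size factors. In all 6 libraries 100% of values came out as whole reads once divided by the smallest value (tolerance 0.02), so reads were recovered. cDNA had no molecular identifiers, so floors (3 reads) cover counting error only. Libraries were grouped by their labels. limma 3.58.1 (R 4.3.3, intensity trend) was run on log2 values with a pseudocount of 1, for genes whose mean was at least 10, with Benjamini-Hochberg adjustment. edgeR 4.0.16 and DESeq2 1.42.0 were run on recovered reads as alternatives, beside pseudocounts, filters, scalings, a replicate block, and each library left out. The main limma fit, edgeR, and DESeq2 were tried on simulated counts, but the permutation test and the other alternatives were not. The members and lists were chosen with earlier results of these data known. Named genes are the members, *Irf1*, called genes and the 4 most abundant further genes of each pathway list, and the 3 genes most correlated with each tested member. *Tnip1*, *Irak3*, accessory and adaptor genes without overlap, marker genes, and genes overlapping a member were named after their values were seen. Transcript lengths and shared sequence came from GENCODE vM1 by symbol. The values of 1 marker gene are not reported here.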

Additional observations from a re-analysis of the deposited data

How the results depend on the processing

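Of 127 alternative log2 fold changes of the 8 tested genes of the family, 123 kept their direction and were, as before, not called. The size alone crossed 0.58 under 5 alternatives for *Ly96* and 7 for *Cd180*, *Tlr2* had an adjusted *P* under 0.05 in DESeq2 only (0.0399), and *Tlr1* had no adjusted *P* there. *Cd14* (1.18) and *Ly96* (0.59) passed both thresholds in DESeq2, which thus called 2 genes higher where limma called 0, and *Tlr3* (0.084) turned to −0.0091 with quantile normalization and, with 1 library left out, ranged from −0.061 to 0.16, the former without *Irf1-/-* replicate 2. The causes were not tested. Over all tested genes, limma called 167 higher and 166 lower. DESeq2 called 295 higher and 209 lower. Without the trend in the prior variance 7 were higher and 33 lower, and with no threshold on the fold change 301 were higher and 260 lower. With 1 library left out, between 83 and 304 were called higher and between 105 and 265 lower. Whether the replicate numbers pair the libraries is not settled. Deviations of same-numbered libraries from their genotype means correlated at −0.094, 0.246, and 0.147 for numbers 2, 3, and 4. *Irf1-/-* replicates 3 and 4 correlated best with the WT library of their own number, but *Irf1-/-* replicate 2 did so with WT replicate 4 (0.251). Deviations from a mean of 3 libraries depend on each other, so these values cannot decide it. With the number as a replicate block, 219 genes were higher and 196 lower, and 0 genes of the family were called (*Cd14*, 1.17). Depth limits *Tlr1*, *Tlr7*, and *Tlr9*, which had at most 27 reads in any library.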
